A study of Mus musculus with 228 samples.

Results

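The cells described here were dentate granule cells (GC) that had received Ascl4, divided by whether they held mRNA of C1ql2. All cells labelled Ascl4 GC and kept by the authors' quality control were taken, 51 of the 56 so labelled in the tables. They were selected on C1ql2 itself: 23 cells had C1ql2 at 10 CPM or more and are called cells with C1ql2, and 28 cells were below 10 CPM and are called cells without C1ql2. CPM, the unit used throughout, is the reads of a gene in a cell divided by all reads assigned to genes in that cell, times 1000000. RNA of single neurons had been drawn into a patch pipette from acute slices of ventral hippocampus of adult Calb1-Cre mice, 3 to 4 months old and 1 month after virus injection into the hippocampus. The Ascl4 GC cells had received a Cre-dependent adeno-associated virus (AAV) for EGFP together with AAV-Ascl4, and the 47 control cells, EGFP GC, had received Cre-dependent AAV-EGFP alone, so an action of Ascl4 and that of an added virus cannot be told apart. Pyramidal cells of medial CA1 from Nex-Cre mice, 46 EGFP CA1 and 45 Ascl4 CA1 cells, are used below for C1ql2 alone. The labels name no animal, so cells of a group may come from few mice, each set of cells counted as 1 sample, and no test between sets was made. All differences are therefore descriptions, and intervals cover counting error only, since reads amplified by PCR without molecular tags are not independent molecules.

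C1ql2 encodes a secreted protein of the C1q-like family, which granule cells release from their mossy fibre terminals onto CA3 pyramidal cells. There C1q-like proteins bind neurexin 3 on the presynaptic side and kainate-type glutamate receptors on the postsynaptic side, and C1ql3 is the family member found with C1ql2 at these synapses. Ascl4 is a basic helix-loop-helix (bHLH) factor of the achaete-scute family, whose members bind short DNA sequences of the E-box type. The question asked of the cells was which other genes differed between cells that held C1ql2 mRNA and cells in which it was near 0 under the same treatment.

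C1ql2 lies on the plus strand of chromosome 1 at chr1:120340582-120343174 (GRCm38), and C1ql3 on the minus strand of chromosome 2 at chr2:13003457-13011806. The promoter stretch of C1ql2 is shown because the cells were divided by this gene and the virus carried a factor of the E-box binding class. It spans 250 bases before to 50 bases after the start of the gene (RefSeq, GRCm38.p6), at chr1:120340332-120340631 on the plus strand. Capitals mark the matches to the general E-box CANNTG, searched over the whole stretch, where the motif reads as its own reverse complement in form and so covers both strands.
C1ql2: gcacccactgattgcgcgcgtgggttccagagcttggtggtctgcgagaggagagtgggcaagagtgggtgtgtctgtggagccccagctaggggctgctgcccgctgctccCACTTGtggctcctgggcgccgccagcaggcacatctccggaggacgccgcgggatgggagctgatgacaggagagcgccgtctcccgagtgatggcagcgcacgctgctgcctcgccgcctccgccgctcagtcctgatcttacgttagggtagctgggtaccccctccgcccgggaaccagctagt
The stretch held 1 match, CACTTG, and did not hold CAGCTG, which is itself one form of CANNTG. Over 32851 promoter stretches of the same length, 72.3% held CANNTG and 16.3% held CAGCTG, so a match is common and is no more than a description of the letters.

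C1ql2 was at 10 CPM or more in 23 of 51 Ascl4 GC cells (45.1%, 95% Clopper-Pearson interval 31.1 to 59.7%) and in 38 of 47 EGFP GC cells (80.9%, 66.7 to 90.9%). Among EGFP CA1 cells, a cell type that lacks the gene, 0 of 46 cells reached 10 CPM, which allows a share of up to 6.52%, and 3 of 45 Ascl4 CA1 cells did, the highest at 995 CPM. In the summed reads C1ql2 stood at 294 CPM in Ascl4 GC (exact Poisson interval 293 to 296) and at 1017 CPM in EGFP GC (1012 to 1021). The levels of the Ascl4 GC cells fell into separate ranges. The 28 cells without C1ql2 lay between 0 and 6.45 CPM with a median of 1.95, and the 23 cells with C1ql2 between 10.4 and 1735 CPM with a median of 338. Between the ranges was a single cell, WA108, at 10.4 CPM from 14 reads, and the next cells above it were at 96.3 and 160.7 CPM. The nearest cells below 10 CPM were at 6.45, 5.82 and 4.58 CPM. EGFP GC cells with C1ql2 had a median of 1057 CPM (61.7 to 3149), and the 9 EGFP GC cells without it lay between 0.537 and 9.78 CPM. Low levels were not bare zeros, because 27 of the 28 Ascl4 GC cells without C1ql2 still had a read of it (0 to 28 reads), against 13 of 46 EGFP CA1 cells (at most 8 reads). After each cell was thinned to 500000 reads, 41 of 51 Ascl4 GC and 2 of 46 EGFP CA1 cells had a read, from median depths of 4700600 and 4610820 reads before thinning, and 22 of 51 and 40 of 47 GC cells were at 10 CPM or more. Whether the few C1ql2 reads of cells without C1ql2 came from the cells themselves was not tested. EGFP GC cells, which had received no AAV-Ascl4, likewise held Ascl4 reads, at 47.2 CPM in the summed reads beside 14111 CPM in Ascl4 GC.

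**Figure D1:**
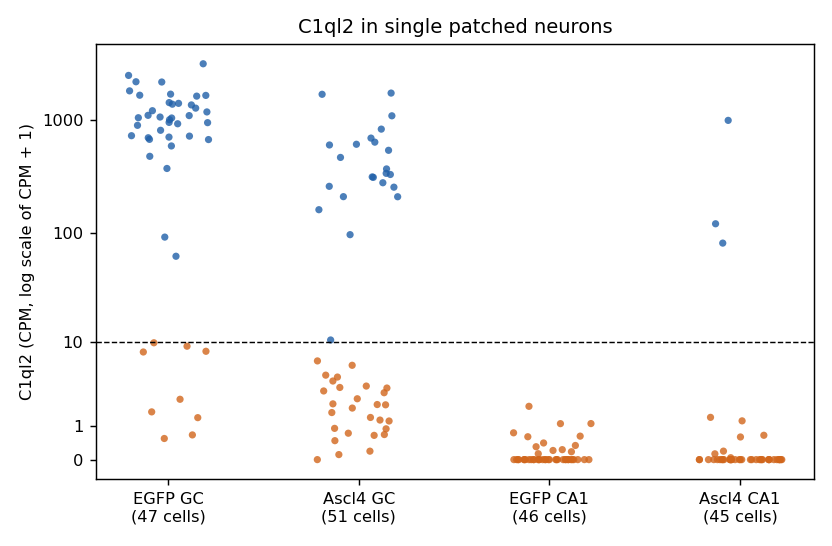
C1ql2 in CPM (log scale of CPM + 1) in each cell of the 4 groups; each point is 1 cell, blue at 10 CPM or more and orange below, and the dashed line is 10 CPM. Ascl4 GC cells lie in separate ranges, 28 cells at 6.45 CPM or less and 22 at 96.3 CPM or more, with 1 cell at 10.4 CPM between them.

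Of the cells without C1ql2, 6 stood apart from the others. Values without these 6 cells are given below where they moved a printed ratio or the median of a list by over 1.5-fold. Cells WA117 to WA120 had 12057 to 14695 genes with a read, more than the 8392 of the richest cell with C1ql2. Their oligodendrocyte list sums were 62261 to 119091 CPM, with 11 to 15 of 18 markers at 10 CPM or more, against at most 1072 CPM and 4 markers in any cell with C1ql2. Mbp, a major protein of myelin, stood at 45195 to 88228 CPM in them, Calb1 at 7.16 to 137.9 CPM, Ascl4 at 182.9 to 3043 CPM, and mitochondrial reads at 7.83 to 23.5% of all reads. In the cell WA027, haemoglobin genes made up 406925 CPM. The cell WA116 was the only Ascl4 GC cell in which the CA1 list outweighed the granule cell list (2707 against 757 CPM), and its microglia list stood at 14981 CPM, while the highest sum of that list in a cell with C1ql2 was 17934 CPM. All 98 GC cells had distinct counts. Total reads overlapped between the sets, with medians of 5046930 (1344891 to 20876388) with and 4479150 (1239702 to 15750033) without C1ql2. Title numbers of the Ascl4 GC cells fell in separate runs, WA021 to WA057 and WA101 to WA120, not named as batches in the labels, and 15 and 18 of the cells with and without C1ql2 were in the first, 8 and 10 in the second.

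Cells without C1ql2 also differed in how many genes they held. Counting genes at 10 CPM or more, the cells with C1ql2 had a median of 3205 (1348 to 5386) and the cells without it 2202 (608 to 7883). Fewer than 2000 such genes were found in 3 of 23 cells with and in 13 of 28 cells without C1ql2, and in EGFP GC in 6 of 38 and 7 of 9. The same order held in cells thinned to 500000 reads, where the medians were 4268 genes with a read for cells with and 3895 for cells without C1ql2. Within wide bands of gene number, in which cells were not matched, C1ql2 was found in a smaller share of Ascl4 GC than of EGFP GC cells. Among cells with 2000 to 4000 genes at 10 CPM and at most 12000 with a read, it was at 10 CPM or more in 16 of 25 Ascl4 GC and 22 of 24 EGFP GC cells. Below 2000 genes these counts were 3 of 16 and 6 of 13, and above 4000 they were 4 of 6 and 10 of 10. The part that the number of genes has in each gene's difference was not tested, so values are also given for the 31 Ascl4 GC cells with at least 2000 genes at 10 CPM and at most 12000 with a read, 20 with and 11 without C1ql2, called cells of like gene number. Their median numbers of genes at 10 CPM were 3243 and 2626.

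**Figure D2:**
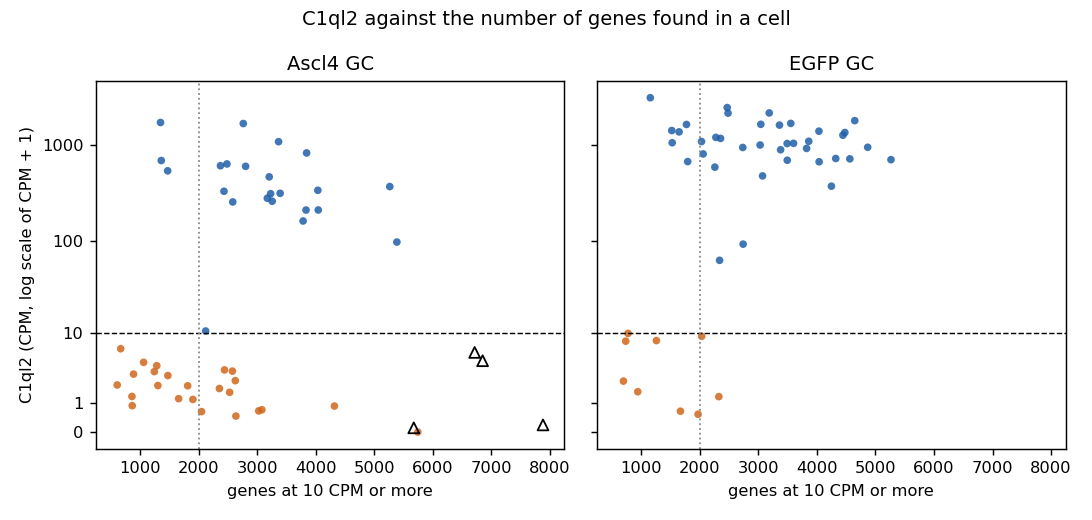
C1ql2 in CPM (log scale of CPM + 1) against the number of genes at 10 CPM or more, 1 point a cell, for Ascl4 GC on the left and EGFP GC on the right; blue cells are at or above 10 CPM (dashed line), orange cells below it, open triangles are the 4 cells with over 12000 genes, and the dotted line is 2000 genes. Cells without C1ql2 are frequent left of the dotted line, 13 of 28 in Ascl4 GC and 7 of 9 in EGFP GC.

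Ascl4 reads were present in both sets. Cells with C1ql2 had a median of 16568 CPM of Ascl4 (4088 to 44534), and cells without it 8378 CPM (182.9 to 30837), so 7 of the 28 cells without C1ql2 lay below every cell with it. The 4 oligodendrocyte-marker cells were among these 7. In cells of like gene number the medians were 16600 CPM (4088 to 44534) and 13279 CPM (6187 to 30837), and neither end of the second range lay outside the first. EGFP GC cells had 0.335 to 221.7 CPM of Ascl4 reads, and 1 Ascl4 GC cell, at 182.9 CPM, fell inside that range.

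A gene counted as expressed when it was at 10 CPM or more in at least 25% of the cells of a set and at 10 CPM or more in the summed reads of a set. Of 5620 expressed genes, 1395 (24.8%) were at least 2-fold higher and 726 (12.9%) at least 2-fold lower in cells with C1ql2, on the scale of log2 of summed CPM + 1, and the median log2 ratio was 0.26. More cells with than without C1ql2, as a share of each set, were at 10 CPM for 4175 of the 5620 genes. In cells of like gene number, 1290 of 6418 expressed genes (20.1%) were higher and 1128 (17.6%) lower, with a median of 0.00. These shares are the background for the gene lists below. The value of a single gene often rested on few cells, because most neuronal genes were found at high levels in some cells and at about 0 in others.

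Granule cell identity genes were present in both sets and stood higher in cells with C1ql2. Of 18 expressed members of the list, 9 were at least 2-fold higher and 0 lower, with a median log2 ratio of 1.09 beside 0.26 for all expressed genes. In cells of like gene number 3 were higher, 2 lower and the median was 0.36 beside 0.00. Calb1, the calcium buffer calbindin that is a standard marker of mature granule cells, ranged from 12.4 to 3593 CPM with a median of 1355 in cells with C1ql2, and from 6.59 to 3534 CPM with a median of 685 without it. It was at 10 CPM or more in 23 of 23 cells with and 25 of 28 without C1ql2, and its ranges overlapped over nearly their whole length (log2 0.36). Prox1, the homeobox factor that keeps granule cell fate, ranged from 0 to 1177 CPM with a median of 23.3 in cells with C1ql2 and from 0 to 1819 CPM with a median of 3.24 without it, and 12 cells of each set reached 10 CPM. The 12 without C1ql2 included all 4 oligodendrocyte-marker cells, so the equal counts for Prox1 rest in part on these cells. Cells without C1ql2 thus included cells with the levels of Calb1 and Prox1 seen in the other set, but the equal counts do not show that Prox1 was kept alike.

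Other members differed more. Rfx3, a factor of the regulatory factor X family known for genes of cilia, ranged from 0.180 to 2964 CPM with a median of 200 in cells with C1ql2, and from 0 to 897 CPM with a median of 3.65 without. It reached 10 CPM in 17 of 23 cells with and 8 of 28 without C1ql2 (log2 2.82), and in 16 of 20 and 6 of 11 cells of like gene number (log2 1.35). In EGFP GC it reached 10 CPM in 30 of 38 cells with and 6 of 9 without C1ql2, with medians of 165.7 and 143.7 CPM. The summed reads there lay the other way, at 350 and 743 CPM, where 1 of the 9 cells was at 2742 CPM. Synpr, the synaptic vesicle protein synaptoporin of mossy fibres, had a median of 423 CPM (2.72 to 1164) with and 14.8 CPM (0 to 2354) without C1ql2. It reached 10 CPM in 20 of 23 cells with and 15 of 28 without C1ql2, although the summed levels were 421 and 348 CPM, because a few cells without C1ql2 held much of it. Stxbp6, which binds the vesicle fusion machinery, reached 10 CPM in 15 and 9 cells (log2 0.24, and -0.69 in cells of like gene number). Bcl11b, a zinc finger factor needed for granule cell maturation and mossy fibre synapses, reached it in 9 and 5 cells, at summed levels of 131.2 and 41.5 CPM (log2 1.64). Without the cell WA107 alone its log2 ratio was 2.44, and in cells of like gene number it was 0.40. The sum of the whole list in a cell ranged from 3289 to 9739 CPM in cells with C1ql2 and from 38.2 to 11297 CPM without. Of the 28 cells without C1ql2, 13 lay below the range of the others, and all 6 cells that stood apart were among these 13. In cells of like gene number the sum had a median of 4647 CPM (3289 to 9739) with and 4057 CPM (757 to 6640) without C1ql2.

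The partner C1ql3 was higher in cells with C1ql2 but was not absent from the others. C1ql3 ranged from 0 to 832 CPM with a median of 20.3 in cells with C1ql2, and from 0 to 140.2 CPM with a median of 4.45 without it. It reached 10 CPM in 16 of 23 cells with and 12 of 28 without C1ql2, and the summed levels were 87.9 CPM (86.4 to 89.5) and 24.4 CPM (23.6 to 25.2), a log2 ratio of 1.81. In cells of like gene number, 13 of 20 and 5 of 11 reached 10 CPM (log2 1.19). In EGFP GC, 32 of 38 cells with and 5 of 9 without C1ql2 reached 10 CPM, with medians of 69.3 and 15.8 CPM. The summed levels there were 120.5 and 141.5 CPM, with 1 of the 9 cells at 1110 CPM. Thus no gap like that of C1ql2 was seen in C1ql3, whose cells spread from 0 upward in both sets.

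Of the 16 expressed genes on the list of the C1q-like family and mossy fibre synapse, 6 were at least 2-fold higher and 2 lower, with a median of 0.60, and in cells of like gene number 2 were higher, 3 lower and the median was -0.39. Nrxn3, the neurexin that binds C1q-like proteins, went the other way from C1ql2. It ranged from 0 to 334 CPM with a median of 0.605 in cells with C1ql2 and from 0 to 834 CPM with a median of 2.24 without, and it reached 10 CPM in 4 of 23 cells with and 11 of 28 without C1ql2 (log2 -1.33). Leaving out the cell WA022 gave -2.02, and cells of like gene number gave -1.29. In EGFP GC the ratio was -1.04, with 8 of 38 cells with and 1 of 9 without C1ql2 at 10 CPM. That 1 cell was at 475 CPM, and the medians and shares of cells there lay the other way, with medians of 0.411 and 0.163 CPM. The kainate receptor subunits Grik2 and Grik4 showed log2 ratios of -0.20 and 0.52, and 8 against 9 and 2 against 2 cells at 10 CPM. These ratios were -1.05 and -0.61 in cells of like gene number. Cdh9, a cadherin of the mossy fibre synapse, reached 10 CPM in 10 of 23 cells with and 3 of 28 without C1ql2, at 63.3 and 25.2 CPM in the summed reads (log2 1.30). Its ratio was 3.31 without the cell WA047, which held 79.03% of its reads in the cells without C1ql2, and -0.36 in cells of like gene number. Lrrtm4, a postsynaptic organizer of excitatory synapses that is prominent in granule cells, reached 10 CPM in 13 and 5 cells, at 106.4 and 70.03 CPM (log2 0.60, and -0.59 in cells of like gene number).

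Among the expressed voltage-gated channel genes the highest ratio was that of Cacna1h, which encodes the Cav3.2 pore of low-voltage-activated (T-type) calcium channels. Cacna1h ranged from 0.611 to 428 CPM with a median of 160 in cells with C1ql2 and from 0 to 115.97 CPM with a median of 0.244 without it. It reached 10 CPM in 17 of 23 cells with and 4 of 28 without C1ql2, at 138.8 CPM (136.9 to 140.8) and 8.42 CPM (7.95 to 8.90), a log2 ratio of 3.89 that stayed between 3.75 and 4.46 when any 1 cell was left out. In the first run of title numbers 10 cells with and 1 without C1ql2 reached 10 CPM, in the second 7 and 3. Cells of like gene number gave 16 of 20 and 3 of 11 (log2 2.87, and 3.54 without WA116). In EGFP GC the split did not show this, with 15 of 38 cells at 10 CPM with and 3 of 9 without C1ql2, and summed levels of 78.8 and 105.7 CPM. Cacna1h lies on the minus strand at chr17:25374285-25433783 (GRCm38) and overlaps at its end with the tryptase gene Tpsg1 (chr17:25369273-25374442, plus strand). Tpsg1, looked at after its values were seen, followed it, at 10 CPM in 15 of 23 and 2 of 28 cells, and since strand was not stated for the counting, reads of the 2 genes in the shared bases cannot be told apart. Of 24 expressed voltage-gated channel genes 5 were higher and 4 lower (median 0.42), and in cells of like gene number 3 were higher and 8 lower (median -0.41). Scn3a, a sodium channel gene of young neurons, was at 100 and 46.4 CPM (log2 1.097), with 2.22 without the cell WA107 and -0.15 in cells of like gene number.

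Among postsynaptic genes, Gria3, an AMPA-type glutamate receptor subunit, ranged from 0.544 to 1401 CPM with a median of 394 in cells with C1ql2 and from 0.224 to 1153 CPM with a median of 5.07 without. It was at 10 CPM in 20 of 23 cells with and 11 of 28 without C1ql2 (468 and 167.6 CPM, log2 1.48), in 18 of 20 and 8 of 11 cells of like gene number (log2 0.64), and in 22 of 38 and 5 of 9 EGFP GC cells, with medians of 47.6 and 17.2 CPM. The summed EGFP GC levels lay the other way, at 190 and 574 CPM, with 1 of the 9 cells at 2281 CPM. Dlg3, a scaffold of the postsynaptic density, reached 10 CPM in 15 and 8 cells (log2 0.56, 2.19 without the cell WA029, and 1.16 in cells of like gene number). Grin2b, an NMDA receptor subunit, stood at 272 and 273 CPM, in 23 of 23 and 20 of 28 cells. Over the list of glutamate receptor and postsynaptic genes, 2 of 21 were higher and 1 lower (median 0.31, and 0.02 in cells of like gene number). A larger share of cells with C1ql2 reached 10 CPM for 20 of the 21 (95.2%), beside 74.3% of all expressed genes. In cells of like gene number this held for 13 of 21 (61.9%), beside 59.0% of all genes expressed there. On the presynaptic list 4 of 23 were higher and 4 lower (median 0.02, and 0.33 in cells of like gene number). Syn1, the vesicle phosphoprotein synapsin I, ranged from 0.269 to 1786 CPM with a median of 425 with and from 1.25 to 528 CPM with a median of 34.7 without C1ql2 (log2 1.60, and 0.70 in cells of like gene number). Slc17a7, the vesicular glutamate transporter, reached 10 CPM in 11 of 23 cells with and 15 of 28 without C1ql2, at 67.8 and 91.9 CPM (log2 -0.43, and -1.30 in cells of like gene number), whereas it did so in 35 of 38 and 3 of 9 EGFP GC cells. Gad1, which makes GABA and is found at low levels in granule cells, reached 10 CPM in 16 and 17 cells, at 286 and 391 CPM (log2 -0.45, and -1.18 in cells of like gene number).

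On the list of neuropeptides and granins 3 of 11 expressed members were higher and 1 lower, near the 24.8% higher of all expressed genes (median 0.34, and 0.26 in cells of like gene number). Vgf, a neuropeptide precursor induced by growth factors and activity, ranged from 0 to 592 CPM with a median of 35.4 in cells with C1ql2 and from 0 to 119.2 CPM with a median of 0.582 without. It reached 10 CPM in 17 of 23 cells with and 6 of 28 without C1ql2 (log2 2.14), and in 16 of 20 and 5 of 11 cells of like gene number (log2 1.08). Chgb, the granin secretogranin I, reached it in 15 and 10 cells (log2 1.01, and 0.54 in cells of like gene number). Chga, chromogranin A, stood at 199.1 and 34.4 CPM in 10 and 6 cells (log2 2.50), and the ratio was 4.02 without the cell WA026 and 3.86 in cells of like gene number. Of the activity-regulated genes, 2 of 23 were higher and 3 lower (median 0.35, and 0.02 in cells of like gene number). Fos, the immediate early transcription factor, reached 10 CPM in 23 of 23 cells with and 27 of 28 without C1ql2, at 3390.5 and 2112 CPM, and Arc, an immediate early gene of synaptic plasticity, was at 873 and 881 CPM.

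**Figure D3:**
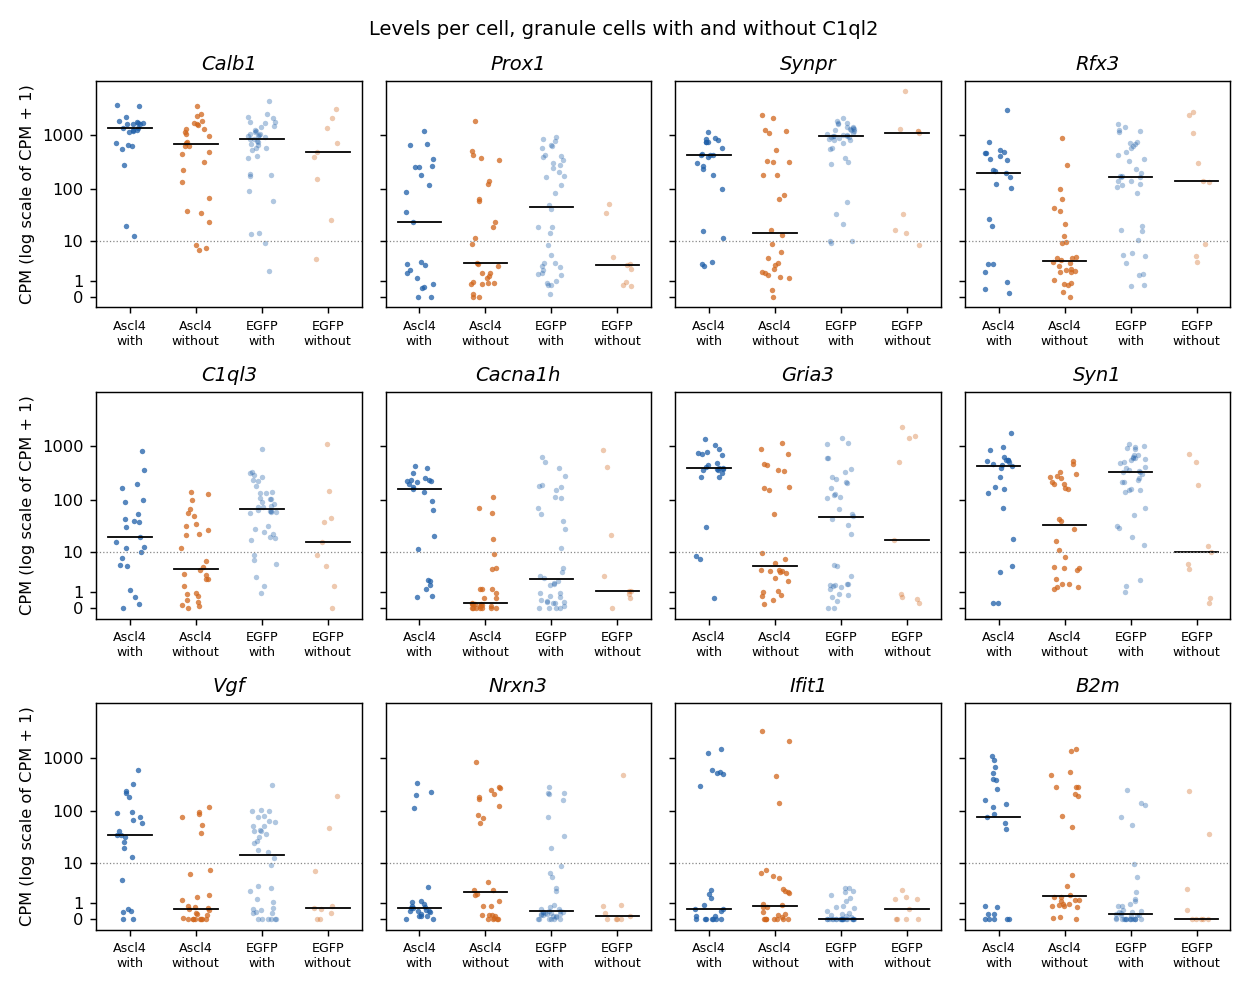
CPM (log scale of CPM + 1) of 12 genes, 1 point a cell, for Ascl4 GC cells with (blue, 23) and without C1ql2 (orange, 28) and, paler, EGFP GC cells with (38) and without it (9); black bars are medians and the dotted line is 10 CPM. Cacna1h has 17 of 23 against 4 of 28 Ascl4 GC cells above the dotted line, and Calb1 23 and 25.

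By the rule for single genes, which asked for a 2-fold difference in the summed reads, in the mean of the cells and in that mean without the highest cell, and for a share of cells at 10 CPM that differed by 20 percentage points, 411 genes were higher and 78 lower. In cells of like gene number, 239 of the 411 were at least 2-fold higher and 17 had a ratio below 0, and 67 of the 78 were at least 2-fold lower. Of all genes expressed there, 20.1% were 2-fold higher and 17.6% lower. Cells of like gene number are part of the cells by which the genes were chosen. The choice itself thus favours the same direction, and these counts are no separate check of it. The 10 highest genes by the rule were found in 6 to 8 cells with C1ql2 and in 0 to 2 without it. They were Adarb2, Dcbld1, Thop1, Rad52, Eepd1, Metap1d, Cys1, Thsd7a, Esyt3 and Evi5l, which belong to no one process. Adarb2, a member of the RNA-editing deaminase family without known editing activity and a marker of some interneurons, ranged from 0 to 532 CPM with C1ql2 (8 of 23 cells at 10 CPM) and from 0 to 15.7 CPM without (1 of 28), at 136.7 and 0.671 CPM (log2 6.36). In EGFP GC it reached 10 CPM in 10 of 38 cells with and 1 of 9 without C1ql2, and the summed levels were 55.2 and 154.9 CPM, the second from that 1 cell at 986 CPM. Thop1, a peptidase that cuts neuropeptides, reached 10 CPM in 8 and 1 cells (log2 5.92), Rad52, a DNA repair protein, in 7 and 1 (5.86), Dcbld1 in 6 and 0 (6.05) and Eepd1 in 7 and 0 (5.78), where 0 of 28 cells allows a share of up to 10.7%. Ratios of this size rested on single cells, since 8 of the 10 moved by over 1.5-fold when 1 cell was left out. Leaving out the cell WA120 gave 6.66 for Thop1 (7.04 without the 6 cells that stood apart), WA032 gave 5.37 for Dcbld1 and WA106 gave 4.93 for Eepd1. In EGFP GC, 48.5% of the 301 higher genes that were expressed there were at least 2-fold higher as well, beside 44.8% of all 4881 genes expressed in EGFP GC. At least 2-fold lower there were 47 of the 301, beside 16.5% of all 4881 genes.

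Of the 10 lowest by the same rule, 9 are given here: Rnf138rt1, Padi2, Fkbp1b, Aars2, Hbb-bs, Hbb-bt, Xylt2, Myadm and Hba-a1. All 9 moved by over 1.5-fold on leaving out 1 cell. Haemoglobin genes rested on the cell WA027, without which Hbb-bs had a log2 ratio of -1.39 in place of -6.32 and Hba-a1 -1.40 in place of -5.93 (-1.65 and -1.67 without the 6 cells that stood apart). Mbp, the myelin protein named above, turned from -6.38 to 1.38 without the 4 oligodendrocyte-marker cells and the cell WA027, and to 1.44 without the 6 cells, and WA117 left out alone gave -5.50. Aars2, the mitochondrial alanyl-tRNA synthetase, reached 10 CPM in 0 and 8 cells (log2 -6.63, and -5.51 without WA042), Fkbp1b, which binds calcium release channels, in 0 and 8 (-6.76, and -4.75 without WA029), Padi2, a deiminase of arginine, in 0 and 7 (-6.87, -5.57 without WA029, and -2.41 in cells of like gene number, or 0.055 there without WA116), Myadm in 0 and 7 (-6.01, and -5.01 without WA047) and Rnf138rt1 in 0 and 7 (-7.09, and -6.41 without WA028), where 0 of 23 cells allows up to 13.04%. Counts of Myadm are uncertain. Evi5l, one of the higher genes, overlaps Prr36 on the opposite strand in the GENCODE gene models, and the RefSeq models of this pair lie side by side without overlap, so their reads could be split. Of the 36 lower genes that were expressed in EGFP GC, 7 (19.4%) were 2-fold lower there too, beside 16.5% of all genes. At least 2-fold higher there were 18 of the 36, beside 44.8% of all genes.

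Interferon response genes, which viral nucleic acid and cytokines induce, stood higher in both sets than in EGFP GC. At least 1 gene of the list was at 10 CPM in 21 of 23 cells with and 22 of 28 without C1ql2, and in 18 of 38 and 5 of 9 EGFP GC cells. The list had a median of 4 genes at 10 CPM in cells with C1ql2 (0 to 13) and 3 in cells without (0 to 25), against 0 (0 to 3) and 1 (0 to 1) in EGFP GC. The sum of the list in a cell had a median of 1181 CPM (2.44 to 3600) with and 826 CPM (0.889 to 6294) without C1ql2 in Ascl4 GC. In EGFP GC these medians were 13.1 and 16.9 CPM. Of 9 expressed members, 4 were 2-fold higher and 1 lower in cells with C1ql2 (median log2 0.87), and in cells of like gene number 3 of 11 were higher and 2 lower (median 0.17). Ifit1, which binds foreign RNA, ranged from 0 to 1468 CPM with C1ql2 and from 0 to 3098 without, and reached 10 CPM in 7 and 4 cells (log2 0.87). Among cells of like gene number these were 7 of 20 and 0 of 11, and the latter allows up to 27.3%. Irf7, the factor that amplifies interferon production, was in 7 and 5 cells (log2 1.14, 2.75 without WA116, and 3.70 without the 6 cells that stood apart). B2m, the light chain of MHC class I, reached 10 CPM in 14 of 23 cells with and 11 of 28 without C1ql2, at 185.7 and 193.4 CPM (log2 -0.06, and 1.19 without the 6 cells). Cd74, which escorts MHC class II molecules, was in 4 cells of each set (log2 0.53, and 6.21 without the 6 cells). In cells of like gene number the log2 ratios of Irf7, B2m and Cd74 were 0.35, 0.05 and 1.20, and without WA116 they were 4.77, 0.97 and 6.29. The 6 cells left out were all without C1ql2, while the cell with the highest microglia list sum, 17934 CPM, had C1ql2 and was kept. Antigen presentation genes had 0 of 4 expressed members 2-fold apart (median -0.27). Without the 6 cells 2 members were expressed, and 2 were higher and 0 lower, beside 1434 higher and 592 lower of all 5078 genes expressed then. In cells of like gene number 1 of 5 members was higher and 1 lower (median 0.05). Microglia markers moved unevenly beside them: the list sum had a median of 333 CPM (0.401 to 17934) with and 70.8 CPM (0.508 to 14981) without C1ql2, up to 13 and 20 of its 21 genes reached 10 CPM in a cell, and Cx3cr1, the fractalkine receptor that defines microglia, reached 10 CPM in 0 of 23 cells with and 6 of 28 without C1ql2 (log2 -4.54, and -2.54 without the 6 cells). Their part in the interferon values was not tested.

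Genes that differed between Ascl4 GC and EGFP GC were also followed over the split. They were taken, with these results in view, as genes at least 4-fold apart in the summed reads of all Ascl4 GC and all EGFP GC cells, with a share of cells at 10 CPM that differed by 20 percentage points, and without C1ql2 and Ascl4. This choice used all Ascl4 GC cells and so fixes much of how both sets compare with EGFP GC. Of the 38 genes lower in Ascl4 GC, the median gene was at 10 CPM in 15.2% of cells with C1ql2 and in 12.5% of cells without it, beside 48.7% and 11.1% in EGFP GC cells with and without C1ql2. The 11.1% rests on 9 cells, 7 of them with fewer than 2000 genes at 10 CPM. The genes were also chosen as low in all Ascl4 GC cells. These shares therefore cannot show whether Ascl4 GC and EGFP GC cells without C1ql2 are alike. The share was higher in cells with C1ql2 for 22 of these genes, lower for 14 and equal for 2. Of the 10 that were expressed, 5 were 2-fold higher and 1 lower (median log2 1.02), and in cells of like gene number the median over 14 was -0.47. Smoc2, a secreted matrix protein, was at 10 CPM in 0 of 23 and 0 of 28 Ascl4 GC cells, with at most 0.458 and 3.09 CPM in any cell, and in 16 of 38 and 0 of 9 EGFP GC cells. Cxcl12, a chemokine made by granule cells, was likewise in 0 of 23 and 0 of 28, at most at 0.8895 and 5.35 CPM, and in 13 of 38 and 3 of 9 EGFP GC cells. For both, 0 of 51 cells allows a share of up to 5.88%. Thus the 23 cells that held C1ql2, up to 1735 CPM of it, held neither Smoc2 nor Cxcl12 at 10 CPM. Rgs4, a regulator of G protein signalling, was at 442 and 330 CPM in 17 cells of each set (log2 0.42, and -0.57 in cells of like gene number), beside 1852 CPM in EGFP GC. Kctd4 reached 10 CPM in 7 and 6 cells (log2 0.74, and -0.38 in cells of like gene number), Scn3b, a sodium channel beta subunit, in 5 and 3 (log2 1.08, 2.63 without WA107, -1.08 in cells of like gene number and -2.85 in the second run), and Nnat, neuronatin, in 0 and 3 (-3.18, -1.77 without WA116, and -0.09 without the 6 cells).

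Of the 40 genes higher in Ascl4 GC, the median gene was at 10 CPM in 39.1% of cells with and 32.1% of cells without C1ql2, and in 10.5% and 0% of EGFP GC cells. In the split of Ascl4 GC, 7 were 2-fold higher, 8 lower, and the median log2 ratio was -0.07 (0.16 in cells of like gene number). Stat3, a cytokine signal transducer, reached 10 CPM in 9 of 23 cells with and 12 of 28 without C1ql2 (log2 -0.24, and -1.86 in cells of like gene number), and Cdkn1a, the cell cycle inhibitor p21, in 10 and 8. Cd34, a sialomucin known from blood progenitors and vessels, was one of the 7, in 14 and 8 cells at 484 and 123.8 CPM (log2 1.96, and 1.27 in cells of like gene number), beside 11.8 CPM in EGFP GC.

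**Figure D4:**
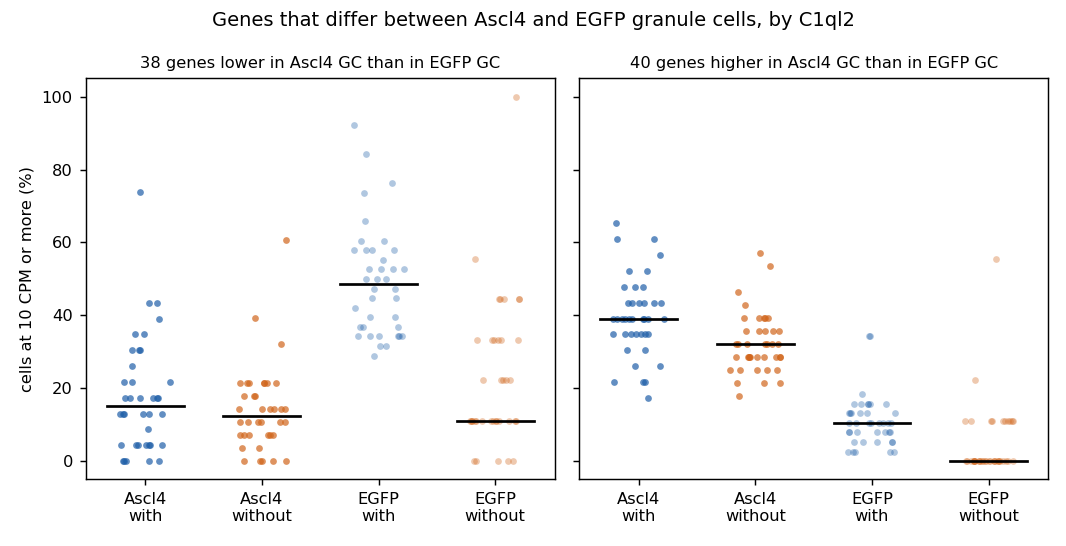
Percent of cells at 10 CPM or more, 1 point a gene, for the 38 genes lower (left) and the 40 genes higher (right) in Ascl4 GC than in EGFP GC, in the cells with (blue) and without C1ql2 (orange) of both groups; black bars are medians. The medians of the 2 Ascl4 GC sets are 15.2% and 12.5% on the left and 39.1% and 32.1% on the right.

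Transcription factors of the bHLH class and their Id inhibitors kept their ratio in cells of like gene number, with 4 of 9 expressed members 2-fold higher and 1 lower (median 0.92), and then 4 of 8 and 0 (median 0.90). Neurod1, a bHLH factor of granule cell differentiation, reached 10 CPM in 11 of 23 cells with and 9 of 28 without C1ql2 (log2 0.91, and 1.92 without the 6 cells that stood apart). Tcf12, an E protein that pairs with tissue-specific bHLH factors and is also among the 40 genes above, did so in 9 and 6 cells at 78.3 and 30.7 CPM (log2 1.32, and 3.11 without WA037), and in 9 of 20 and 1 of 11 cells of like gene number (log2 3.29). Dcx, doublecortin of young neurons, was in 6 and 2 cells (log2 3.74, 4.61 without WA120, and 5.17 without the 6 cells), while its list of immature neuron and progenitor genes had a median of -0.35, 1 of 9 higher and 2 lower. Trans-synaptic organizers had a median of 0.23 (4 of 21 higher and 2 lower), and -0.30 in cells of like gene number (5 of 24 higher and 4 lower). GABA receptors had a median of -0.31 (1 of 12 higher, 4 lower), and -0.14 in the latter cells. Heat shock and chaperone genes turned from 0.22 (1 of 15 higher, 2 lower) to -0.16, and p53 targets from 0.15 (0 of 8 either way) to -0.21. Ddit3, a transcription factor of the integrated stress response, reached 10 CPM in 15 of 23 cells with and 12 of 28 without C1ql2 (log2 1.61, and 1.86 in cells of like gene number). Nuclear genes of oxidative phosphorylation had 3 of 45 members higher and 0 lower at a median of -0.20, while a larger share of cells with C1ql2 reached 10 CPM for 37 of the 45 (82.2%), beside 74.3% of all expressed genes. This count was 22 of 45 (48.9%) in cells of like gene number, beside 59.0% of all genes expressed there. Ndufv1, a subunit of complex I, was one of the 3, at 681 and 258 CPM in 20 and 15 cells.

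Markers of other cells lay as follows. The oligodendrocyte list had a median of -7.04 over 3 expressed members, all 3 lower, and without the 6 cells 2 members were expressed, 1 higher and 1 lower. Mitochondrially encoded genes had 10 of 10 lower (median -2.09), and without the 4 cells of many genes 0 of 10 were 2-fold apart (median -0.24). Astrocyte genes had a median of -0.62 (0 of 9 higher and 4 lower) and 0.17 without the 6 cells that stood apart. Microglia genes had a median of -0.26 (1 of 11 either way). Without the 6 cells 7 members were expressed, 6 higher and 0 lower (median 1.97), beside 1434 higher and 592 lower of all 5078 genes expressed then. In cells of like gene number 0 of 9 members were higher and 0 lower (median -0.06). CA1 genes had a median of -0.10 (0 of 4 higher and 1 lower). Genes of CA3 and mossy cells had 0.70 (1 of 3 higher, 0 lower), and -0.56 in cells of like gene number. Interneuron genes had -0.45 (2 of 5 either way), and 1.28 without the 6 cells, and 0 of 12 endothelial and pericyte genes was expressed. Sv2b, a vesicle protein typical of pyramidal cells, reached 10 CPM in 0 of 23 cells with and 7 of 28 without C1ql2, 2 of the 11 of like gene number among them (log2 -5.10, -4.43 without WA117, and -2.64 without the 6 cells). Cnr1, the cannabinoid receptor, was in 0 and 7 cells (log2 -5.41, -4.82 without WA117, and -3.94 without the 6 cells), and 3 of 11 of like gene number. Neurod6, the pyramidal cell bHLH factor behind the Nex-Cre line, was in 0 and 1 cell, that of WA116 (log2 -1.74, and 0.029 without the 6 cells). Tgfb2, a growth factor on the CA3 and mossy cell list, was in 7 and 1 cells (log2 4.65, 5.43 without WA119, and 5.47 without the 6 cells).

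**Figure D5:**
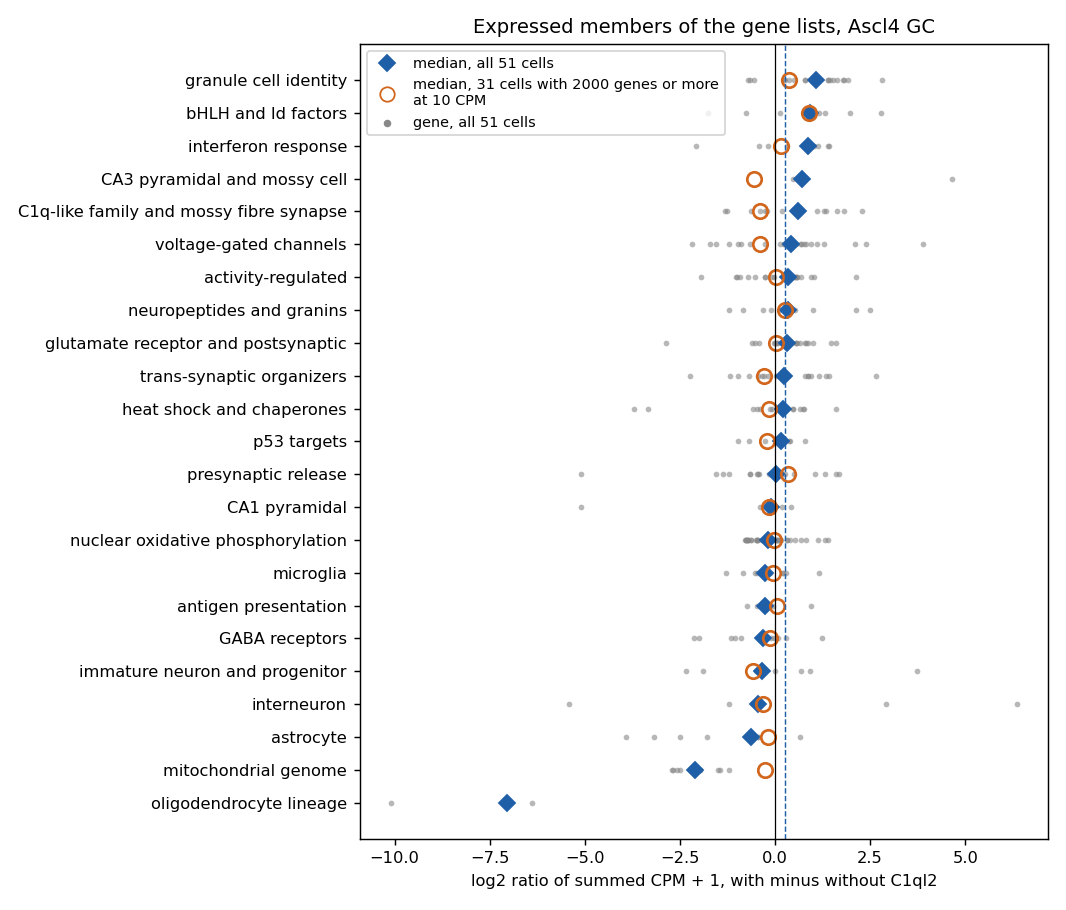
Log2 ratio of summed CPM + 1, cells with minus without C1ql2, for the expressed members of each gene list (grey points) in Ascl4 GC; blue diamonds are list medians over 51 cells, orange circles list medians in the 31 cells of like gene number, and the dashed line is the median of all 5620 expressed genes, 0.26. The granule cell identity median is 1.09 by the first measure and 0.36 by the second.

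The same split in EGFP GC, 38 cells with and 9 without C1ql2, gave larger overall differences. Of 4881 expressed genes, 2188 (44.8%) were at least 2-fold higher and 805 (16.5%) lower in cells with C1ql2, and the median log2 ratio was 0.69, with medians of 3128 and 1257 genes at 10 CPM per cell. Granule cell identity genes had a median of 0.14 there (9 of 20 higher, 5 lower), below that of all genes. Prox1 reached 10 CPM in 23 of 38 cells with and 2 of 9 without C1ql2, and Calb1 in 36 and 8. Whether the Ascl4 GC and EGFP GC splits differ could not be tested with 1 sample of each set.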

How the data were processed

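Read counts per gene were deposited by the authors for all 228 cells and for the 189 cells that passed their quality control; counts of shared cells were identical. A deposited table of normalized signal, counts divided by 1 factor per cell, served as an alternative. Per the submitters' processing notes, STAR, HTSeq and GRCm38.p4 were used. Not given in the sources used here were their versions, the strand setting, the normalization and the rules of the quality control. For Ascl4 GC the series text counts 52 cells past quality control, and the table holds 51. Totals are over 22870 gene rows, without 92 spike-in rows (4 reads). Ascl4 GC cells held 1239702 to 20876388 reads.

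Cells were split at 10 CPM of C1ql2. Reads were summed over each set, scaled to CPM and compared as log2 ratios with a pseudocount of 1 CPM, which understates low genes; deeper cells weigh more. No test was made, as no label names an animal. Intervals at 95% are exact Poisson (sums) or Clopper-Pearson (shares); a count of 0 allows 3 counts. The members and the 24 gene lists (563 genes, 552 found by symbol) were chosen with earlier results of these data known. Named genes were the 10 highest and 10 lowest by the rule given above (gene models, pseudogenes, ribosomal and mitochondrially encoded genes excluded), up to 3 members a list by difference in share of cells, and fixed genes; Tpsg1, Scn3b, Kctd4, Nnat, Rgs4, Stat3, Cd34 and Cdkn1a were singled out after their values were seen. Some genes are not reported here. The 2000-gene limit and leaving out 5 or 6 cells were chosen after seeing the data. Positions came from GENCODE annotation of GRCm38. The code was tested on simulated data. Scripts ran in Python 3.11.15 with pandas 2.3.3, numpy 2.4.6, matplotlib 3.10.9 and scipy 1.17.1, and in R 4.3.3 with edgeR 4.0.16 and DESeq2 1.42.0 for scaling factors only.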

Additional observations from a re-analysis of the deposited data

Results flagged for a closer look

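Reads of C1ql2 were also found outside the cells compared. Of the 5 Ascl4 GC cells left out by the authors' quality control, 3 had C1ql2 at 10 CPM or more, and the 5 ranged from 3.00 to 30.01 CPM, above the highest EGFP CA1 cell at 1.96 CPM. These levels rest on 4 to 12 reads of C1ql2 a cell, out of 233282 to 1335238 reads in all. EGFP CA1 cells held up to 8 reads of C1ql2 at a median depth of 4610820 reads. The read counts thus overlap, and the CPM values come from unlike depths.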

How the results depend on the processing

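Each set is 1 sample, and depth, the number of genes found and single cells limit every value. A cut at 1 CPM gave 42 and 9 cells, and a cut at 1 read left a lone cell without C1ql2, so that setting compares 1 cell with the rest. With the strict expression filter 296 genes were higher and 115 lower, with none 3888 and 3287, in the second run alone 3022 and 2106; other counts past 1.5 times the first were lower genes at the 1 CPM cut (1118), the 1 read cut (2692), the authors' normalized values (1101) and cells of like gene number (1128). The granule cell identity median was 0.48 at the 1 CPM cut, 5.89 at the 1 read cut and 0.36 in cells of like gene number (0.26 without WA116). That of the C1q-like family and mossy fibre synapse was 5.17 at the 1 read cut and -0.39 in cells of like gene number (-0.50 without WA116). The interferon median was 0.17 at the 1 CPM cut, -2.11 at the 1 read cut, 0.19 thinned, -0.35 with no filter, -0.99 in the second run and 0.17 in cells of like gene number (0.27 without WA116). Log2 ratios of 2-fold size changed sign as follows. The 1 CPM cut gave Scn3a -0.11, Chgb -0.39, Hba-a1 4.56, Hbb-bs 6.02, Irf7 -0.29, Rnf138rt1 1.47, Padi2 1.78, Fkbp1b 0.82, Scn3b -0.46. The 1 read cut gave the mitochondrial genome list 0.035, C1ql3 -0.30, Nrxn3 6.004, Cacna1h -0.67, Gria3 -0.52, Vgf -0.87, Chga -0.42, Mbp 5.71, Hba-a1 5.86, Hbb-bs 9.76, Irf7 -4.28, Rnf138rt1 6.402, Fkbp1b 0.45, Aars2 5.99, Myadm 0.34, Tpsg1 -0.22, Ddit3 -0.34. Mbp was 1.43 without cells of over 12000 genes and 1.38 without 5 cells. Thinning gave Cdh9 -0.33, the first run Mbp 1.74, the second run Irf7 -0.12, Scn3b -2.85, and cells of like gene number Cdh9 -0.36, Scn3a -0.15, Mbp 0.44, Scn3b -1.08. Without 6 cells, Neurod6 was 0.029 and Mbp 1.44. Cells of like gene number without WA116 gave Cdh9 -0.47, Scn3a -0.25, Neurod6 0.021, Mbp 0.45, Padi2 0.055 and Scn3b -1.19. Causes were not tested where the setting does not itself leave out the cells or genes concerned. Over all settings 410 of 503 list medians and 1062 of 1449 gene ratios stayed within 1.5-fold. No paired analysis was possible because the title numbers are not shared between groups and the result comes from no test.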
